A study of Arabidopsis thaliana with 6 samples.

Results

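The nodulin-like major facilitator genes are a small family of predicted membrane carriers in plants. A list of 10 Arabidopsis loci of this family was examined, and those with a probe set (the group of array probes that reports 1 transcript) naming 1 gene were kept, which left 7 of the 13286 genes measured in this way. AT2G16660 was chosen by its measured rise in sdg2 on these same arrays, so its values are given as a description and carry no test. The other 6 measured loci, AT4G34950, AT2G39210, AT5G14120, AT1G74780, AT3G01930 and AT1G80530, were listed as its relatives, with results of these arrays already known. AT2G28120, AT2G34350 and AT2G34355 complete the list and were not analysed here.

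RNA came from whole seedlings of the Columbia accession (Col-0) grown untreated on half-strength Murashige and Skoog plates at 22 °C with 24 h of light per day and taken at 10 days of age. There were 3 wild type samples and 3 samples carrying an sdg2 mutation, each hybridised to a 1-colour Affymetrix array. SET DOMAIN GROUP 2 (SDG2) trimethylates lysine 4 of histone H3, a mark of active genes, and the comparison asks which transcripts differ when it is mutated. The labels name neither the sdg2 allele nor the number of seedlings in a sample, and call the samples biological replicates without saying how they were kept apart. A p-value here therefore reflects only differences among the 3 samples within a genotype, and some of that may be technical. In the main fit the spread of each probe set was also drawn toward a value estimated from all probe sets.

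Major facilitator proteins span the membrane many times and move sugars, ions, peptides and other small solutes, usually driven by an ion gradient. The nodulin-like branch is named after proteins of legume root nodules, and in soybean and Lotus japonicus such a nodule protein has been described as an anion carrier that prefers nitrate. In Arabidopsis, which forms no nodules, the family member NFD4 is known for a role in nuclear fusion during reproduction, and NFD4 was not analysed here. The symbol column of the gene table used here gives the listed loci no name other than their locus names, a synonym it lists for AT2G28120 was set aside as doubtful, and no individual substrate is assigned to them.

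All values are log2 array signals after GCRMA, the authors' normalization, in which probe sets without detectable transcript pile up at a lower mode between 2.18 and 2.20 on these arrays. Array medians lay between 5.90 and 5.96, and the correlation between arrays was 0.997 to 0.998 within a genotype and 0.970 to 0.971 across genotypes. No probe set is named for SDG2, so the mutant label was not checked against its gene. Markers of green tissue were bright, as the seedling label requires, with RCA (Rubisco activase) between 14.13 and 14.32 and LHCB4.1 (a light-harvesting antenna protein) between 13.96 and 14.17 on all 6 arrays. Of the 3 measured of 8 listed green markers 1 fell in sdg2, LHCB4.2 by 0.77. Of the 3 measured of 6 listed root markers EXPA18 and PYK10 each fell by 0.33, while 17.6% of all probe sets were called lower. That share includes probe sets near the lower mode, where none of the measured markers lay. When only the 13262 probe sets with at least 5 on 3 or more arrays were tested, 3964 were called lower. Leaving out any of 4 arrays (wild type replicates 2 and 3, sdg2 replicates 1 and 3) ended the call for PYK10, with an adjusted p in limma from 0.109 to 0.122, and so did quantile normalization (0.126), unmoderated statistics (0.0884) and testing only probe sets that name 1 gene (0.0504). The change of the root marker EXPA7, -0.75, missed the threshold and met it without wild type replicate 3 (adjusted p = 0.0363 in limma). With all arrays it also met the threshold when dim probe sets were filtered out (0.0286) and when arrays were weighted (0.0302). In whole seedlings, fewer cells of a type and less RNA per cell cannot be told apart. The 3' minus 5' signal of the ubiquitin control, a gauge of RNA integrity, was 0.47 to 0.52 in wild type and 0.67 to 0.69 in sdg2, while for actin and GAPDH the groups overlapped. The part of these shifts in the results below was not tested.

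AT2G16660 and AT4G34950 stood far above their relatives in the size of their rise, at 18.0-fold and 13.5-fold, while the changes of the other 5 measured loci lay between -0.30 and 0.76 on the log2 scale. AT2G39210 and AT1G80530 rose slightly, AT5G14120 fell slightly, and AT1G74780 and AT3G01930 did not pass. In limma, at a p below 0.05 after Benjamini-Hochberg adjustment across the 22746 probe sets tested, 4 of the 6 relatives changed, 3 of them higher and 1 lower. Over all probe sets 36.6% were called by the same rule, 19.0% higher and 17.6% lower, so a change of some size was common on these arrays. When only the 13262 probe sets with at least 5 on 3 or more arrays were tested, 63.4% were called. That setting again called 4 of the 6 relatives. Over all 22746 probe sets, a call at 2-fold or more in the upward direction was made for 5.06% and for 1 of the 6 relatives, AT4G34950. The median change of the 7 measured loci was 0.31, that of the 6 relatives 0.16, and that of all 13286 genes -0.01. The list was drawn up with the results of these arrays known, so these counts describe its members and show nothing particular to the family.

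AT2G16660, on chromosome 2, had signals of 6.13, 6.11 and 6.02 on the 3 wild type arrays and of 10.34, 10.32 and 10.12 on the 3 sdg2 arrays. The lowest sdg2 array thus lay 3.99 log2 units above the highest wild type array, and the arrays within each genotype lay close together. The means were 6.09 ± 0.06 (SD, n = 3) and 10.26 ± 0.12, a change of 4.17 ± 0.07 (SE). As a ratio this is 18.0-fold. The wild type signal was well above the lower mode of the arrays, so the ratio does not rest on a value at background. By size of rise it held place 31 among the 22746 probe sets. With any 1 array left out, or under each of the other alternative settings, its change stayed between 4.13 and 4.24.

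AT4G34950, on chromosome 4, had signals of 6.74, 6.72 and 6.89 in wild type and of 10.53, 10.66 and 10.43 in sdg2. Its groups were also far apart, with 3.54 log2 units between the nearest arrays against 3.99 for AT2G16660. The change was 3.76 ± 0.08 (SE), from 6.78 ± 0.09 (SD, n = 3) to 10.54 ± 0.12, or 13.5-fold with a 95% interval from 11.8 to 15.6 (limma, adjusted p = 1.33e-05). It held place 52 among all probe sets by rise. Its wild type signal, too, was well above the lower mode. The change of AT2G16660 exceeded that of AT4G34950 by 0.41 ± 0.11 (SE, taking the errors of the probe sets as independent), a difference given without a test because AT2G16660 was chosen by its rise. Rises of at least 10-fold past the threshold were made by 0.343% of all probe sets. Each locus is read by a single probe set that names no other gene, and whether either probe set also reads the other transcript was not tested.

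**Figure D1:**
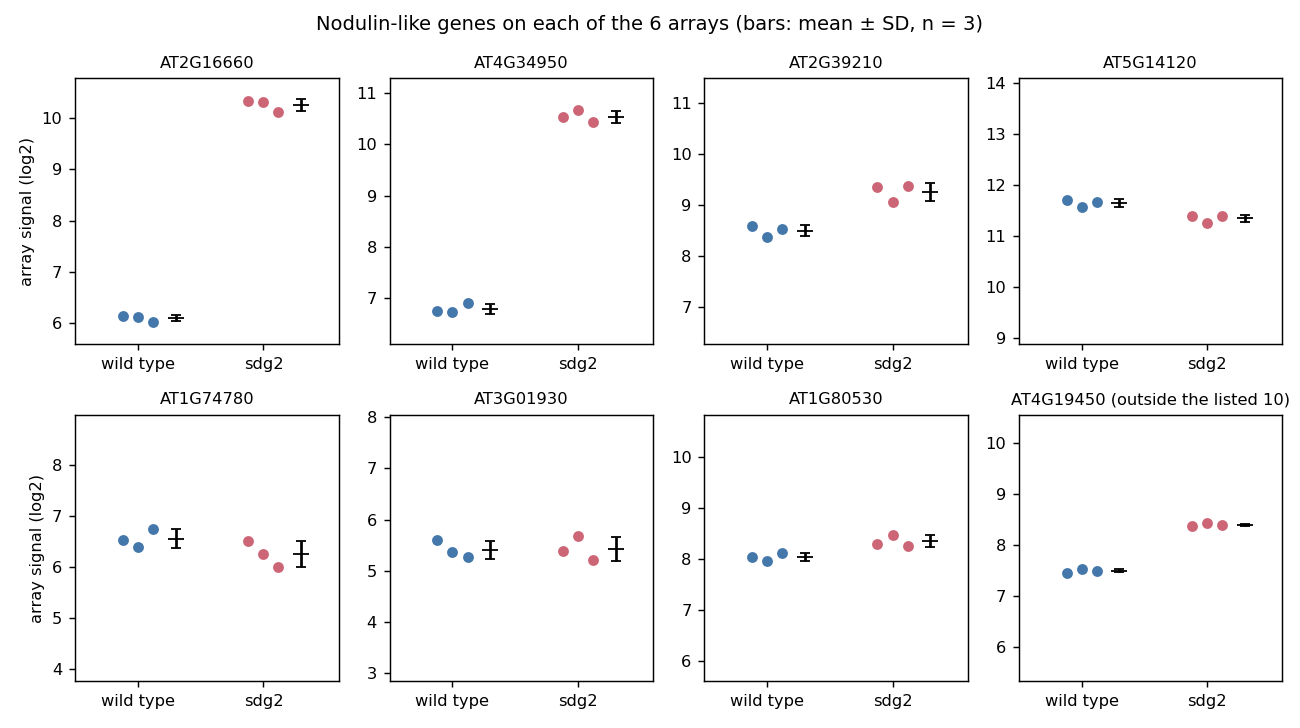
Signal (log2) on each of the 6 arrays for the 7 measured loci of the list and for AT4G19450, another family locus, with wild type in blue and sdg2 in red and the mean ± SD (n = 3) beside each group. Every panel spans the same number of log2 units around its own values, so differences can be compared between panels and levels cannot. The groups lie 3.99 and 3.54 units apart for AT2G16660 and AT4G34950, and overlap for AT1G74780 and AT3G01930.

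AT2G39210, on chromosome 2, rose by a much smaller amount. Its signals were 8.58, 8.37 and 8.54 in wild type and 9.34, 9.06 and 9.38 in sdg2. All sdg2 arrays were above all wild type arrays, with sdg2 replicate 2 the lowest of its group. The change was 0.76 ± 0.11 (SE), a 1.70-fold rise with a 95% interval from 1.40 to 2.05 (limma, adjusted p = 0.00385). Of all probe sets, 8.35% had a higher change. AT2G16660 rose by 3.41 log2 units more than AT2G39210.

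AT1G80530, on chromosome 1, went from 8.04, 7.95 and 8.11 in wild type to 8.30, 8.48 and 8.26 in sdg2. The groups did not overlap, but only 0.15 log2 units lay between their nearest arrays. Across all probe sets the groups did not overlap in 48.3%, and in 24.2% sdg2 was the higher. The change was 0.31 ± 0.07 (SE), a 1.24-fold rise (limma, adjusted p = 0.0248). This call depended on single arrays. Settings that ended it included leaving out wild type replicate 1 (adjusted p = 0.0741), wild type replicate 2 (0.0723) or sdg2 replicate 1 (0.0555), and unmoderated statistics (0.0573), while the change kept its direction.

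AT5G14120, on chromosome 5, was the locus of the list that fell. Its signals were 11.71, 11.57 and 11.67 in wild type and 11.39, 11.27 and 11.39 in sdg2, so that every sdg2 array lay below every wild type array, the nearest by 0.17. The change was -0.30 ± 0.06 (SE), a 1.23-fold difference (limma, adjusted p = 0.0114). Under all 14 alternatives it remained between -0.34 and -0.24 and past the threshold.

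AT1G74780 and AT3G01930 did not pass the threshold. AT1G74780, on chromosome 1, had 6.52, 6.40 and 6.75 in wild type and 6.51, 6.25 and 5.99 in sdg2. Its groups overlapped and its sdg2 arrays were spread over more than its change of -0.30 ± 0.16 (SE, adjusted p = 0.229 in limma), with a 95% interval from -0.72 to 0.11. AT3G01930, on chromosome 3, had 5.61, 5.36 and 5.27 in wild type and 5.38, 5.67 and 5.21 in sdg2. Here the wild type and sdg2 values were interleaved, and the change of 0.01 ± 0.15 had an interval from -0.37 to 0.39. The intervals leave room for a change of 1.31-fold upward in AT3G01930 and to 0.607 of the wild type level in AT1G74780. Rises of the size found in AT2G16660 and AT4G34950 lie outside both intervals.

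**Figure D2:**
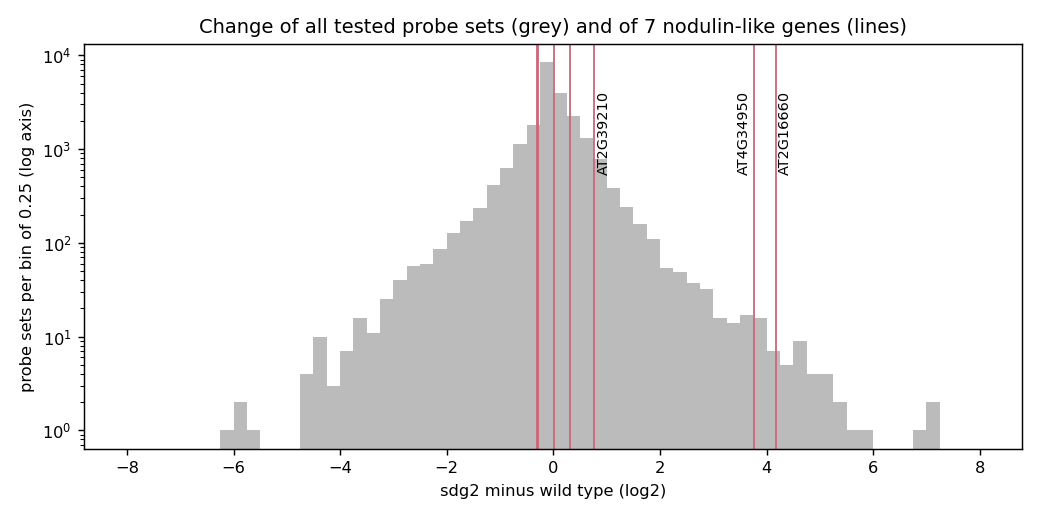
Number of probe sets (log axis, grey) by change between sdg2 and wild type in log2 units, over all 22746 tested probe sets, with a line for each of the 7 measured loci of the list. AT2G16660 at 4.17 and AT4G34950 at 3.76 lie in the sparse upper tail, AT2G39210 at 0.76 on its shoulder and the other 4 near the centre, where the lines of AT5G14120 and AT1G74780 overlap at -0.30.

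Replicate spread differed among the members. The SD over the 3 arrays of a genotype ranged from 0.06 in wild type for AT2G16660 to 0.26 in sdg2 for AT1G74780. The median SD over all probe sets was 0.08 in each genotype. That median includes probe sets at background, where none of the 7 lay, so it is not a like reference for them. AT1G74780 and AT3G01930, the loci that did not pass, had the largest SDs of the 7 in both genotypes.

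Beyond the list, 8 further loci were taken to belong to the family from general knowledge of it, and 4 of them have a probe set of their own. AT4G19450, on chromosome 4, rose in sdg2 with little spread, from 7.46, 7.52 and 7.50 to 8.38, 8.42 and 8.39. The groups lay 0.86 log2 units apart at their nearest, and the change was 0.90 ± 0.03 (SE), a 1.87-fold rise (limma, adjusted p = 3.19e-05). AT4G19450 was outside the list of 10, and its rise was of the same order as that of AT2G39210 and far below those of AT2G16660 and AT4G34950. AT1G18940, AT2G30300 and AT3G01630 had means between 1.99 and 2.31 in both genotypes, at or near the lower mode, so that no difference could be measured for them. AT5G50520 and AT5G50630 share a probe set and cannot be told apart. That shared signal was 7.54, 7.45 and 7.21 in wild type and 7.77, 7.49 and 7.51 in sdg2, a change of 0.20 ± 0.12 with a 95% interval from -0.11 to 0.50 that did not pass. NFD4 and AT5G45275 were not analysed here. Of the 10 family loci with a probe set of their own other than AT2G16660, 4 rose, 1 fell and 5 did not pass, 3 of the 5 being the loci at background, where 36.6% of all probe sets were called.

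**Figure D3:**
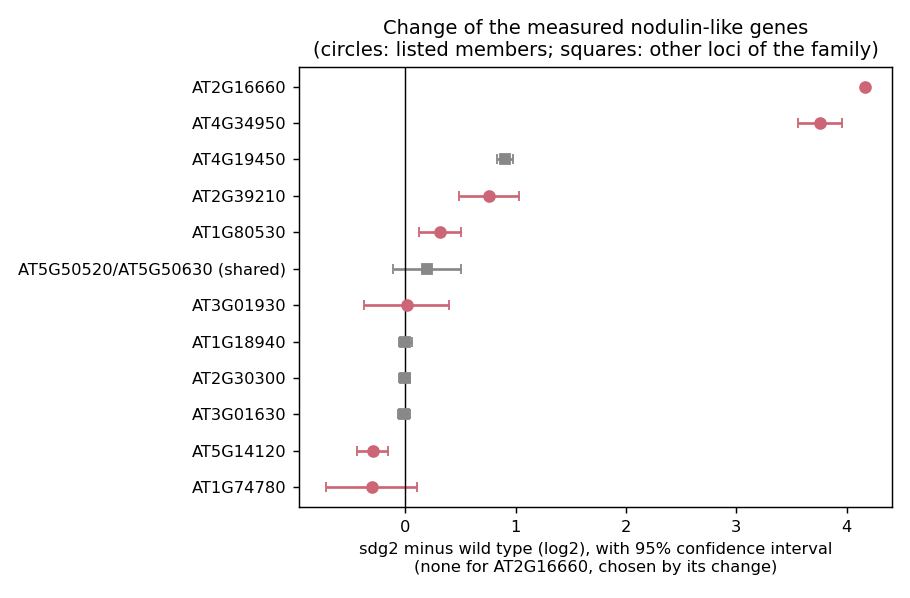
Change between sdg2 and wild type (log2) with its 95% confidence interval from limma for each measured locus of the family other than AT2G16660, which is drawn as a point because its change chose it, circles for the listed loci and squares for the others. AT2G16660 and AT4G34950 lie apart at 4.17 and 3.76, and the rest lie between -0.30 and 0.90.

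Among carriers of other major facilitator families, 13 of 69 listed genes were measured, and their changes lay between -0.73 and 1.44. Of 32 listed monosaccharide and sugar alcohol carriers 11 were measured, and 3 rose, 1 fell and 7 did not pass, with 4 of the 11 at background and a median change of 0.00. Over all probe sets 36.6% were called, 19.0% higher and 17.6% lower, so the count is near the background. AT5G61520 had the largest rise of that list, 1.44 ± 0.27 (SE, adjusted p = 0.0115 in limma), with wild type signals of 6.88, 7.02 and 6.04 and sdg2 signals of 7.99, 8.16 and 8.09. Wild type replicate 3 was the low array of its group. AT2G20780 rose by 0.42, a call lost without wild type replicate 1 (adjusted p = 0.0817), wild type replicate 3 (0.0783) or sdg2 replicate 3 (0.0636). Unmoderated statistics with all arrays also ended that call (0.0595). SFP2, a sugar-porter family gene, fell by 0.48 ± 0.05 (adjusted p = 0.00177). The remaining rise was that of TMT2, a tonoplast sugar carrier, by 0.28. That call ended when wild type replicate 2, wild type replicate 3, sdg2 replicate 1 or sdg2 replicate 3 was left out, with an adjusted p from 0.0695 to 0.0951. It also ended under unmoderated statistics (0.0678). For AT2G18480 the change of -0.72 missed the threshold and met it without wild type replicate 3 (adjusted p = 0.0126 in limma) or with arrays weighted (0.0361). Of 19 nitrate and peptide carriers 2 were measured. AT2G26690 (NPF6.2), of the nitrate and peptide carrier family, fell by 0.73 ± 0.06 (adjusted p = 0.000549), and NRT2.5, a high-affinity nitrate carrier, was at background. The 9 sucrose carriers and the 9 PHT1 phosphate carriers were not analysed here.

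Of the genes near AT2G16660 and AT4G34950 on their chromosomes 5 were measured, and their changes lay between -0.16 and 0.79. Of the 5 protein-coding genes on either side of AT2G16660, 3 have a probe set of their own, and 1 of these was called, where 36.6% of all probe sets were. The nearest 2 genes on each side of AT2G16660 were not analysed here. AT2G16630, the third gene before it, rose by 0.79 ± 0.12 (SE, adjusted p = 0.00540 in limma), while AT2G16710, at 0.08, missed the threshold. AT2G16620, at -0.08, also missed it but was at background, with means of 2.72 in wild type and 2.65 in sdg2. Of the 5 on either side of AT4G34950, looked up after its values were seen, AT4G34910 and AT4G34960 were measured, at -0.16 and -0.01, and neither passed in limma or had an unadjusted p below 0.05. The surroundings of the pair are alike in one respect, from the gene order alone. Step 2 after AT2G16660 is ADF5 and step 4 is MYB7, and step 2 after AT4G34950 is ADF9 and step 4 is MYB32, so an actin-depolymerizing factor gene and a MYB transcription factor gene follow each locus at the same steps. None of these 4 genes was analysed here. AT2G34350 and AT2G34355 are next to each other in the gene order, and of the 6 measured genes within 5 steps of that pair 0 passed in limma at an adjusted p below 0.05 and 1 had an unadjusted p below 0.05, against 43.8% of all probe sets at that unadjusted level. The highest change among them was that of AT2G34357, 0.25 ± 0.08 (adjusted p = 0.0673 in limma). It met the threshold without wild type replicate 2 (0.0318) and with dim probe sets filtered out (0.0430). AT2G34320, AT2G34330, AT2G34360 and AT2G34370 had means below 3 in both genotypes and were taken as background. These counts therefore say little about the surroundings of AT2G34350 and AT2G34355.

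**Figure D4:**
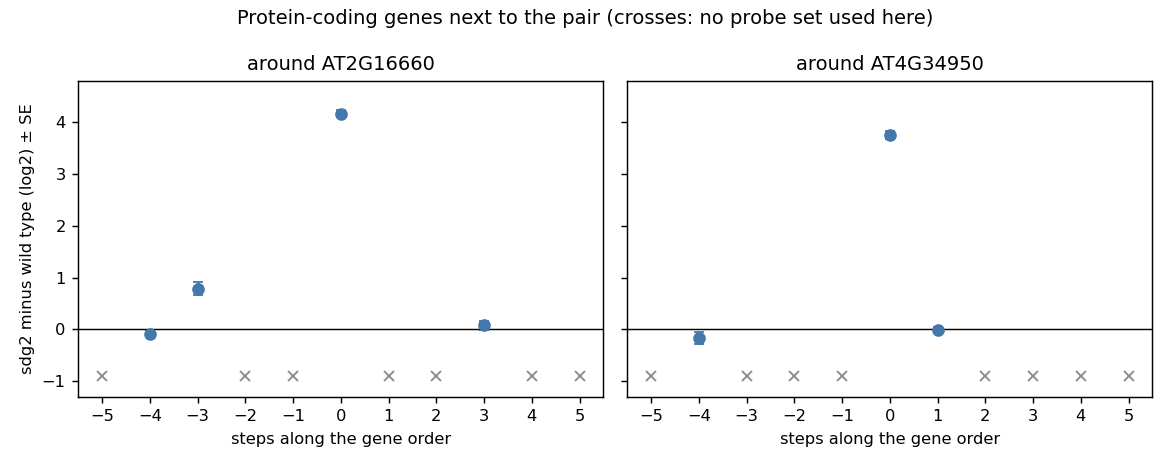
Change between sdg2 and wild type (log2, ± SE) of AT2G16660 and AT4G34950, at step 0, and of the 5 protein-coding genes on either side of each in the gene order; crosses mark genes with no probe set used here. Among the measured neighbours only AT2G16630, at 0.79, passed the threshold, and AT2G16620 was at background.

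Genes with a pattern like that of AT2G16660 were found by centring each probe set that names 1 gene on its own mean and taking the root mean square difference from AT2G16660 over the 6 arrays. Since AT2G16660 rose strongly, the closest of the 13435 probe sets are others with a rise of like size, and the ranking is a description. AT3G26460 was closest at a difference of 0.16, followed by COR15A at 0.18, a cold-regulated gene, ChiC at 0.19, a class V chitinase gene, AT1G12030 at 0.20 and AT4G22470 at 0.21. Their changes lay between 3.78 and 4.14. AT4G34950 came next in place 6 with a difference of 0.23. The next member of the list, AT2G39210, was in place 857 with a difference of 1.71.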

How the data were processed

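RNA of 3 wild type and 3 sdg2 seedling samples was measured on 1-colour Affymetrix arrays. The authors deposited log2 values made with GCRMA (background adjustment, quantile normalization, summary into probe sets), as the submitters' processing notes name it. Its version, its settings and the genome build were not given in the sources used here, so no coordinates are printed, and the number of arrays limits the precision. Of 22810 probe sets 64 array controls were left out. The platform annotation names 1 gene for 13513, of which 13436 matched the NCBI gene table of TAIR10.1, used for names and gene order. A gene was represented by its brightest probe set.

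The fit was limma 3.58.1 (R 4.3.3; lmFit, eBayes, genotype means), checked on simulated data. A mean below 3 in both genotypes was taken as background. The members, lists and rule for named genes (measured family loci, up to 2 rises and 2 falls of each carrier list, measured neighbours within 5 genes, the 5 most alike genes, tissue markers) were chosen with earlier results of these data known. TMT2, AT2G18480 and the neighbours of AT4G34950 were named after their values were seen. No pairing is stated, and deviations of same-numbered samples correlated at -0.01, 0.07 and 0.06. Figures were drawn with matplotlib 3.10.9.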

Additional observations from a re-analysis of the deposited data

How the results depend on the processing

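Each result was recomputed under 14 alternatives, 6 of which leave out 1 array. For genes outside the family these alternatives were added after the data were seen. The number of probe sets called, 8327, 36.6% of those tested, was 4114 of 13513 (30.4%) when only probe sets naming 1 gene were tested. The cause was not tested. It was 7865 with the replicate number as a block, 6991 to 9213 in the other settings with all arrays and 7368 to 7565 with 1 array left out. Within that range, filtering out dim probe sets gave 8405 of only 13262 tested, or 63.4%. The number of called relatives, 4 of 6, was 3 with the replicate block, 3 with unmoderated statistics and 3 to 4 with 1 array left out, and 4 in the other settings. The locus lost was AT1G80530 each time (adjusted p = 0.0924 with the block). Over all probe sets, deviations of same-numbered samples hardly correlated (-0.01, 0.07 and 0.06), which does not settle the matter for single genes. With the block, the SE went from 0.107 to 0.045 for AT2G39210, from 0.056 to 0.029 for AT5G14120 and from 0.071 to 0.039 for AT2G16660. That of AT3G01930 also fell, while those of AT4G34950, AT1G80530 and AT1G74780 rose. The block also moved the calls of AT2G20780 (adjusted p = 0.0784), TMT2 (0.0645), EXPA7 (0.0273) and AT2G34357 (0.0158). Of the 11 tested probe sets of the family, 10 kept their side of the threshold in every alternative that tested them and none reversed past it. Each member has 1 probe set, so averaging a gene's probe sets was not run.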
